A study of Mus musculus with 8 samples.

Results

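Cytosolic heat shock proteins were followed in mouse tibialis anterior, a fast-twitch muscle of the shin, 20 weeks after Sdhc, which encodes a membrane anchor of succinate dehydrogenase, was deleted from skeletal muscle. The set was defined by name, as 10 genes of the HSP70, HSP90, HSP40 and small heat shock protein families. Of these, 7 were among the 23930 genes of the table: the small heat shock proteins Cryab, Hspb6 and Hspb7, the stress-inducible HSP70 genes Hspa1a and Hspa1b, and the HSP70 partners Dnajb1 and Hsph1. Hspa8, Hspb1 and Hsp90aa1 are not analysed here.

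The KO mice (n = 4 libraries) carried an inducible HSA-Cre together with Lox-SDHC, and their WT littermates (n = 4 libraries) carried the same HSA-Cre but No Lox. HSA denotes the promoter of the human skeletal actin gene, which drives the recombinase in skeletal muscle fibres, so the deletion was not directed at the vessels, nerves and connective tissue of the muscle. Mice of both groups received tamoxifen at 12 weeks of age and were sampled another 20 weeks on. The growth protocol gives the background as C57/B6 for all mice, whereas the strain number written in the genotype label of the KO samples differs from the C57BL/6 of the WT samples. RNA was measured with an Ion AmpliSeq Transcriptome Mouse panel, which amplifies 1 short segment per gene, so levels can be compared between libraries for the same gene but not between genes. Values are RPM, the reads of a gene per 1000000 reads of the library.

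Heat shock proteins are chaperones that hold or refold proteins which have lost their shape. HSP70 binds exposed stretches of unfolded protein and releases them in cycles of ATP hydrolysis. These cycles are started by J-domain (HSP40) proteins such as Dnajb1 and reset by nucleotide exchange factors such as Hsph1. Small heat shock proteins need no ATP, assemble into oligomers and, in muscle, sit at the Z-disc and on intermediate filaments such as desmin. Many of these genes are switched on by heat shock factor 1 through heat shock elements, inverted repeats of the letters GAA.

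The libraries held 4.77 to 7.28 M reads in KO and 5.99 to 7.09 M reads in WT (M, 1000000), and 3 reads, taken as the floor of detection, came to between 0.412 and 0.628 RPM. The targeted transcript Sdhc stood at 17.1, 14.5, 22.8 and 49.4 RPM in KO 1 to KO 4, against 574, 693, 795 and 722 RPM in WT 1 to WT 4 (two-sided exact permutation p = 0.0286; 4 against 4 can give none smaller). Fast fibre markers summed to 111500 to 167400 RPM in KO and 134800 to 188600 RPM in WT, as the label of mature skeletal muscle requires. Xist reached 98.9 RPM in library KO 4 and 77.3 RPM in library WT 1, with at most 0.334 RPM in the other libraries, and the labels used here give no sex. The test was run on 11087 genes that reached 1 RPM in 4 or more libraries. In limma, 89 of them had an adjusted p under 0.05, with 58 (0.523%) higher and 31 (0.28%) lower in KO than in WT. With scaling by trimmed means of M values (TMM) the split was 39 higher (0.352%) and 65 lower (0.586%). The log2 fold change of the median gene was 0.13 as deposited and 0.01 after TMM scaling. Distances from that median are therefore given beside the fold changes.

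In KO muscle, Cryab rose and the other small heat shock proteins Hspb6 and Hspb7 did not pass the test. Hspa1b, the stress-inducible HSP70, was 3.05-fold higher in mean RPM at very low levels and missed the threshold (limma adjusted p = 0.0512). Dnajb1 and Hsph1 were 1.32-fold and 1.25-fold higher in mean RPM and did not pass. Of the 6 members that were tested, 1 rose and 0 fell in limma, against 0.523% and 0.28% of all genes. At an unadjusted p under 0.05, 2 were higher (13.1% of all genes) and 0 lower (3.07%). With TMM factors limma gave the same counts at that level, 2 higher (6.14% of all genes) and 0 lower (7.17%), and 0 that passed. The edgeR quasi-likelihood test with TMM called 0 of the 6 (0.334% of all genes higher and 0.496% lower), and DESeq2 called Cryab and Hspa1b (0.749% of all genes higher and 1.42% lower). Of the 6, 5 had a positive log2 fold change as deposited, against 7761 of the 11087 genes, and 4 after TMM scaling, against 5672 genes. Hspa1a reached 1 RPM in 3 libraries only and was not tested.

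**Figure D1:**
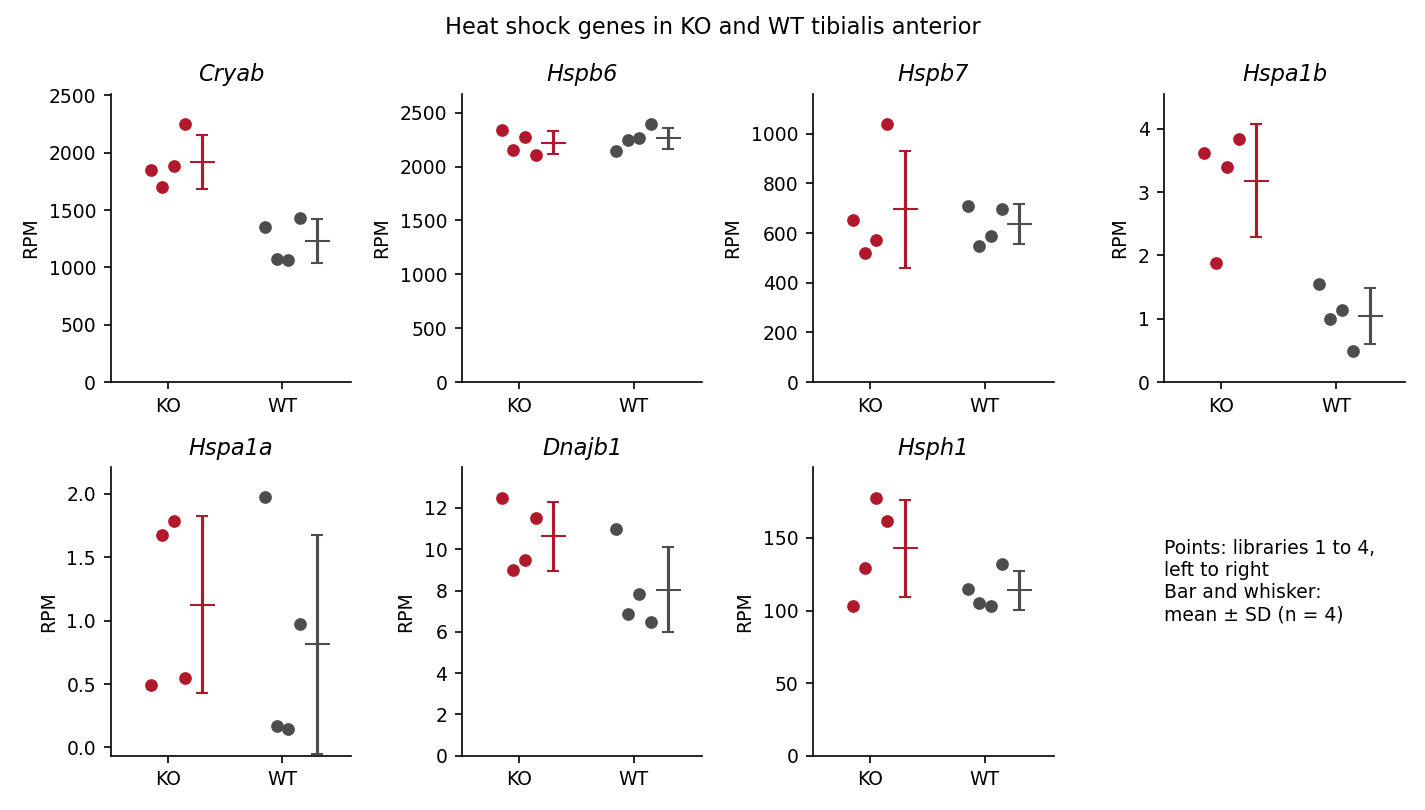
RPM (y axis, linear, a separate scale per gene) of the 7 heat shock genes in KO (red, left) and WT (grey, right); points are libraries 1 to 4 and the bar with whisker is the mean ± SD (n = 4). The KO points of Cryab, between 1698 and 2248 RPM, and of Hspa1b, between 1.89 and 3.85 RPM, all lie above the WT points; the groups of the other 5 genes overlap.

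Cryab encodes alpha-B crystallin, the small heat shock protein that binds desmin and titin and is abundant in oxidative muscle and heart. It lies on chromosome 9 from 50751325 to 50756636 on the plus strand of GRCm38 (ENSMUSG00000032060.10, protein coding). Cryab stood at 1846, 1698, 1882 and 2248 RPM in KO 1 to KO 4, against 1353, 1074, 1065 and 1434 RPM in WT 1 to WT 4. Every KO library lay above every WT library, and the lowest KO value was 1.18 times the highest WT value. Such separation toward higher values was seen in 7.5% of all genes tested. The mean was 1918 ± 233 RPM in KO and 1232 ± 190 RPM in WT (SD, n = 4 each), a ratio of 1.56. The log2 fold change was 0.64 (SE 0.14, 95% interval 0.34 to 0.95), 0.52 above the median of all genes, with a limma adjusted p of 0.0464 that ranked 82 among the 89 calls. With TMM factors the fold change was 0.51 and the call ended (limma adjusted p = 0.104).

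The call of Cryab rested on most of the libraries. The limma adjusted p was 0.141 without WT 2, 0.184 without WT 3, 0.124 without KO 1, 0.0639 without KO 2, 0.111 without KO 3 and 0.0562 without KO 4, and it was 0.0251 without WT 1 and 0.0442 without WT 4. The fold change itself stayed between 0.57 and 0.72 in these 8 fits. Among the 6 libraries without Xist the fold change was 0.61 (limma adjusted p = 0.0243). With Xist-positive libraries as a term in the fit, the adjusted p was 0.0158.

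Cryab shares its start region head to head with Hspb2, a small heat shock protein of muscle on the other strand, and the annotated genes overlap from 50751325 to 50752354. The sources used here do not say whether the counting used strand, so reads from that overlap could belong to either gene. Hspb2 averaged 124 ± 15.1 RPM in KO muscle and 109 ± 18.8 RPM in WT muscle (SD, n = 4 each; log2 fold change 0.07 above the median of all genes, limma adjusted p = 0.527).

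Hspb6, known as HSP20, is a small heat shock protein of striated and smooth muscle that protein kinase A phosphorylates (chromosome 7, 30552178 to 30555443, plus strand, ENSMUSG00000036854.14). Hspb6 stood at 2343, 2157, 2271 and 2111 RPM in KO 1 to KO 4, against 2147, 2242, 2267 and 2391 RPM in WT 1 to WT 4. The groups covered almost the same range, and the lowest libraries were KO 4 and WT 1. Its log2 fold change was -0.03 (SE 0.12, 95% interval -0.28 to 0.23; limma adjusted p = 0.932), -0.15 relative to the median of all genes and -0.16 with TMM factors, so a rise of the size of Cryab, 0.64, lay outside its interval. Hspb6 overlaps Proser3 and Lin37 on the other strand, and Gm38670 on the same strand. The extent of each overlap was not worked out, and the sources used here do not place the amplified segment.

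Hspb7 is a small heat shock protein of heart and skeletal muscle that binds the actin crosslinker filamin C (chromosome 4, 141420779 to 141425311, plus strand, ENSMUSG00000006221.7). Hspb7 stood at 654, 521, 571 and 1038 RPM in KO 1 to KO 4, against 710, 550, 589 and 699 RPM in WT 1 to WT 4. The libraries with Xist, KO 4 and WT 1, were the highest of their groups, and the other 3 KO libraries lay inside or below the WT range. Between the groups, the log2 fold change was 0.08 (SE 0.18, 95% interval -0.3 to 0.47; limma adjusted p = 0.856), which is -0.04 relative to the median of all genes. It turned to -0.13 without KO 4, to -0.07 among the 6 libraries without Xist, and to -0.05 with TMM factors.

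The ratio of Cryab to its neighbours in the family does not depend on how the libraries are scaled, since a common factor cancels. Cryab over Hspb6 came to 0.788, 0.788, 0.829 and 1.06 in KO 1 to KO 4, against 0.63, 0.479, 0.47 and 0.6 in WT 1 to WT 4. Cryab over Hspb7 came to 2.82, 3.26, 3.3 and 2.17 in the KO libraries, against 1.91, 1.95, 1.81 and 2.05 in the WT libraries. Both ratios were higher in every KO library than in every WT library, although KO 4 lay close to WT 4 for Cryab over Hspb7. These ratios were formed after the values of the 3 genes had been seen and are given as a description.

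**Figure D2:**
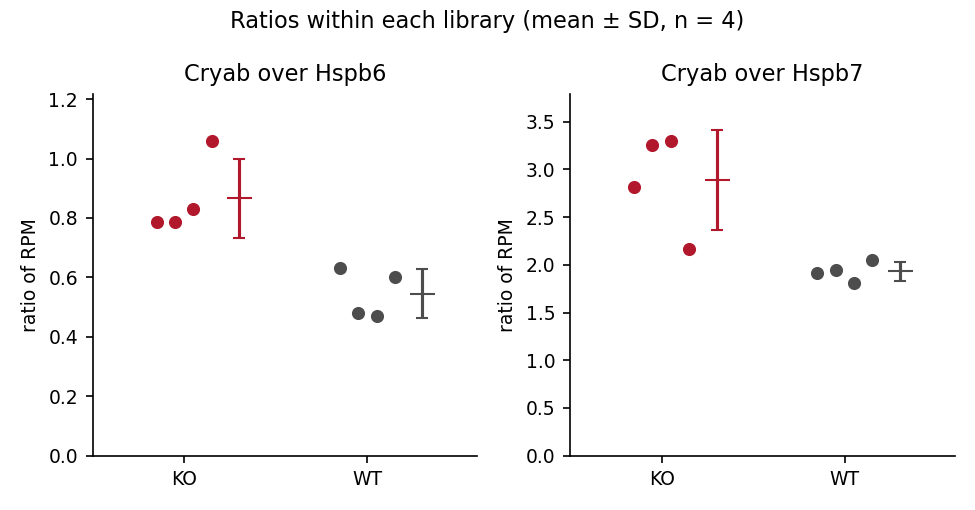
Ratio of RPM within each library (y axis, linear from 0) of Cryab to Hspb6 (left panel) and to Hspb7 (right panel), in KO (red, left) and WT (grey, right); points are libraries 1 to 4 and bars are the mean ± SD (n = 4). KO ratios to Hspb6 lie between 0.788 and 1.06 and WT ratios between 0.47 and 0.63.

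Markers of other cells and of fibre types were read beside Cryab. Endothelial markers summed to 729.5, 688.2, 787.6 and 608.5 RPM in KO 1 to KO 4, against 478.3, 530.2, 416.9 and 580.9 RPM in WT 1 to WT 4. Every KO sum lay above every WT sum, while KO 4, the highest library for Cryab, was the lowest of KO. Of the 10 markers, all tested and none listed at 0 in every library, 10 lay above the median of all genes, 7 had an unadjusted p under 0.05, and 0 passed in limma or edgeR. At that unadjusted level 13.1% of all genes were higher and 3.07% lower, and with TMM factors 6.14% and 7.17%. Adipocyte markers summed to 295.7 to 355 RPM in KO and 173.1 to 244.2 RPM in WT, and 3 of 6 were tested. Nearly all of that sum was Fabp4, which averaged 302 RPM in KO and 194 RPM in WT, so the sum is not a separate result. Fabp4, a fatty acid binding protein also made by capillary endothelium, was the 1 that rose (limma adjusted p = 0.0404). With TMM factors its limma adjusted p was 0.0729, and edgeR gave 0.0857. The other tested adipocyte genes, Cfd and Cidec, had adjusted p of 0.873 and 0.885. Of 10 slow and oxidative fibre markers tested, 4 were higher at an unadjusted p under 0.05, Tnnc1, Atp2a2, Tnni1 and Tnnt1, and 0 passed. Only these 4 lay above the median of all genes, and the list median was -0.04 relative to it. The sum of the list overlapped (4513 to 6487 RPM in KO, 4997 to 7693 RPM in WT). It was mostly Mb, which averaged 4869 RPM in KO and 5441 RPM in WT. Tnnc1, the slow troponin C, stood at 6.08, 10.5, 3.75 and 4.67 RPM in the KO libraries, against 2.96, 2.34, 2.99 and 1.13 RPM in the WT libraries (limma adjusted p = 0.0745). Fast fibre markers, those of the main fibre type here, all lay below the median of all genes, 11 of 11 tested, with a list median of -0.36 relative to it. Of these, 2 were lower at an unadjusted p under 0.05, Myoz1 and Casq1. Myoz1, a Z-disc protein, averaged 241 ± 32.6 RPM in KO muscle and 339 ± 32.9 RPM in WT muscle (SD, n = 4 each). Its limma adjusted p was 0.087 as deposited and 0.0381 with TMM factors, and edgeR gave 0.0409. In the other 7 marker lists, whose sums overlapped between the groups, the macrophage gene Cd68 rose (limma adjusted p = 0.0192) and the tendon gene Scx fell (0.0164). Cd68 was the only 1 of 7 macrophage genes tested with an unadjusted p under 0.05. Of those 7, 4 lay above the median of all genes, and the list median was 0.05 above it. Scx was likewise the only 1 of 6 tendon genes tested at that level. Of those 6, 0 lay above the median of all genes, and the list median was -0.53 relative to it. The part of these cells and fibres in the values of Cryab was not tested. In RNA of whole muscle, fewer cells of a type and less RNA per cell cannot be told apart.

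Hspa1a and Hspa1b are intronless neighbours on chromosome 17 that encode nearly the same HSP70, the chaperone that cells make on heat shock and proteotoxic stress. Hspa1b runs from 34956436 to 34959238 and Hspa1a from 34969190 to 34972156, both on the minus strand of GRCm38 (ENSMUSG00000090877.3 and ENSMUSG00000091971.3). In GENCODE M21 transcripts, their reading frames matched at 99.4% of 1929 aligned positions, whereas the parts after the stop codon, 643 bases in Hspa1b and 810 in Hspa1a, matched at 47.3%. The sources used here do not place the amplicons in these transcripts, and the split of reads between the genes is uncertain. Hspa1a also overlaps Gm20481 on the other strand, from 34969912 to 34972136. The 250 bases before each start are shown because they make plain how alike the genes are even outside the coding part; they come from RefSeq on GRCm38.p6, minus strand, at chr17:34972157-34972406 for Hspa1a and chr17:34959239-34959488 for Hspa1b. Capitals mark the match to a heat shock element of 2 units, GAANNTTC or TTCNNGAA.
Hspa1a: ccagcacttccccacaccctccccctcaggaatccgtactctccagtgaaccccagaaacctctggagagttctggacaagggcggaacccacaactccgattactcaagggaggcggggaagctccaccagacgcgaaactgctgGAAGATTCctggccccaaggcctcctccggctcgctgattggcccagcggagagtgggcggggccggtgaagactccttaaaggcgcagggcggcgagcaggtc
Hspa1b: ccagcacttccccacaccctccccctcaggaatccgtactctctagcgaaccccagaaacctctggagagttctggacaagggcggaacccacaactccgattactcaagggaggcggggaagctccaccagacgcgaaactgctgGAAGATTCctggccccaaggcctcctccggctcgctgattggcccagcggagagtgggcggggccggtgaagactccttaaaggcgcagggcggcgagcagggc
The windows differ at 3 of 250 positions, C44T, T47C and T249G, counted from 1 at the 5′ end with the Hspa1a base first. In both, the element begins 104 bases before the start. Both motifs read the same on the other strand. Windows of the same length with such a match made up 12.8% of the 32851 in the table. That share counts windows and not genes. The members had 9 windows, and those of Hspa1a and Hspa1b are nearly the same sequence. Of the 6 members with a window, 4 held a match in at least 1 window (Hspa1a, Hspa1b, Hspb6 and Hsph1). None held the 3-unit form, GAANNTTCNNGAA or its reverse complement TTCNNGAANNTTC, which 0.466% of all windows held. A match is a run of letters and not a measured binding site.

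Hspa1b was measured at 3.61, 1.89, 3.39 and 3.85 RPM in KO 1 to KO 4, from 22, 9, 19 and 28 reads. In WT 1 to WT 4 it was at 1.55, 1.0, 1.14 and 0.486 RPM, from 11, 6, 8 and 3 reads, the last at the floor. Every KO library lay above every WT library, a separation seen in 7.5% of all genes tested. Even so, the exact 95% binomial interval (Clopper-Pearson) of the lowest KO library was 0.862 to 3.58 RPM. It overlapped that of the highest WT library, 0.774 to 2.78 RPM. Such intervals cover counting error only. The mean was 3.18 ± 0.886 RPM in KO and 1.04 ± 0.44 RPM in WT (SD, n = 4 each). The log2 fold change of RPM + 1 was 1.03 (SE 0.24, 95% interval 0.53 to 1.53), 0.91 above the median of all genes, with a limma adjusted p of 0.0512. The added 1 RPM shrinks the change of so low a gene, and edgeR on the reads gave 1.46 (adjusted p = 0.0772).

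Hspa1a was at 0.493, 1.68, 1.78 and 0.549 RPM in KO 1 to KO 4, from 3, 8, 10 and 4 reads, against 1.97, 0.167, 0.143 and 0.972 RPM in WT 1 to WT 4, from 14, 1, 1 and 6 reads. The groups overlapped widely, and 3 of the 8 libraries were at or below the floor of 3 reads. With the reads of both genes joined, the sum was 4.11, 3.56, 5.18 and 4.39 RPM in the KO libraries, against 3.52, 1.17, 1.28 and 1.46 RPM in the WT libraries. The lowest KO library and the highest WT library, KO 2 and WT 1, were 3.56 and 3.52 RPM. Entered as 1 gene in the same fit, the sum had a log2 fold change of 0.95 (SE 0.24; limma adjusted p = 0.0712), 0.83 above the median of all genes, and did not pass; without WT 1 it passed (1.2, adjusted p = 0.0102).

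**Figure D3:**
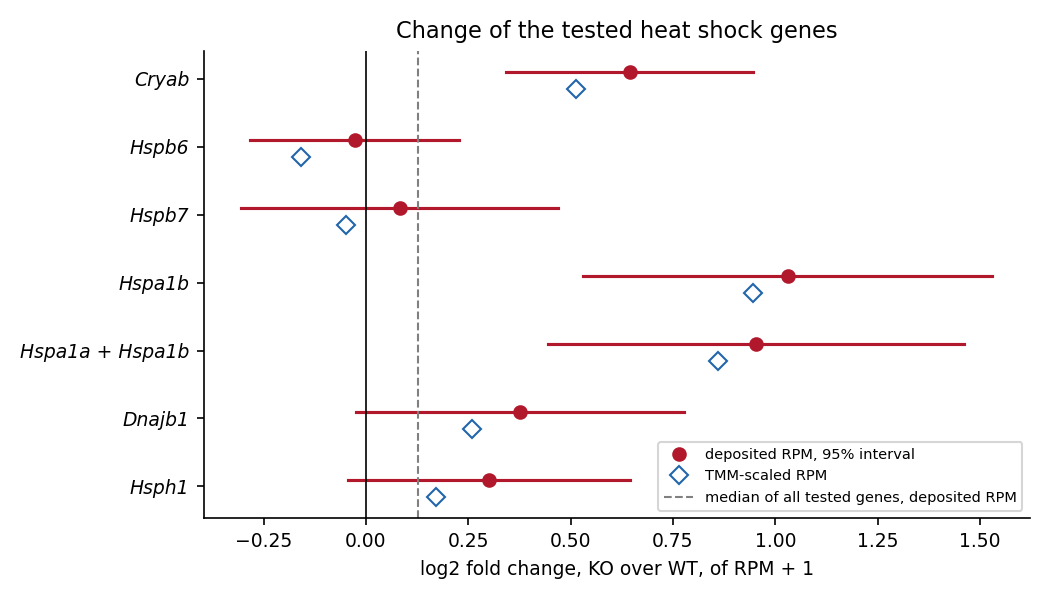
Log2 fold change of RPM + 1, KO over WT (x axis), of the 6 tested heat shock genes and of Hspa1a and Hspa1b summed; red circles with lines are the deposited scale with 95% intervals from limma, open diamonds the values after TMM scaling, and the dashed line is the median of all tested genes at 0.13. The intervals of Cryab and Hspa1b lie above the dashed line and those of the other 4 single genes include it.

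Dnajb1 is the J-domain protein that passes unfolded clients to HSP70 and stimulates its ATPase (chromosome 8, 83608193 to 83612653, plus strand, ENSMUSG00000005483.10). Dnajb1 stood at 12.5, 9.01, 9.46 and 11.5 RPM in KO 1 to KO 4, against 11.0, 6.84, 7.84 and 6.48 RPM in WT 1 to WT 4. WT 1 lay inside the KO range and the other WT libraries below it. KO over WT, the log2 fold change was 0.38 (SE 0.19, 95% interval -0.02 to 0.78; limma adjusted p = 0.335), 0.25 above the median of all genes.

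Hsph1, known as HSP110 or HSP105, resets HSP70 by nucleotide exchange and works with it to dissolve aggregates (chromosome 5, 149614287 to 149636376, minus strand, ENSMUSG00000029657.15). Hsph1 stood at 103, 129, 178 and 161 RPM in KO 1 to KO 4, against 115, 105, 103 and 132 RPM in WT 1 to WT 4. KO 3 and KO 4 lay above all WT libraries, while KO 1 was level with the lowest of them. Its log2 fold change was 0.3 (SE 0.16, 95% interval -0.04 to 0.65; limma adjusted p = 0.372), 0.18 above the median of all genes. Neither Dnajb1 nor Hsph1 passed in any of the 24 other settings, of which the sum of Hspa1a and Hspa1b left their values untouched.

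**Figure D4:**
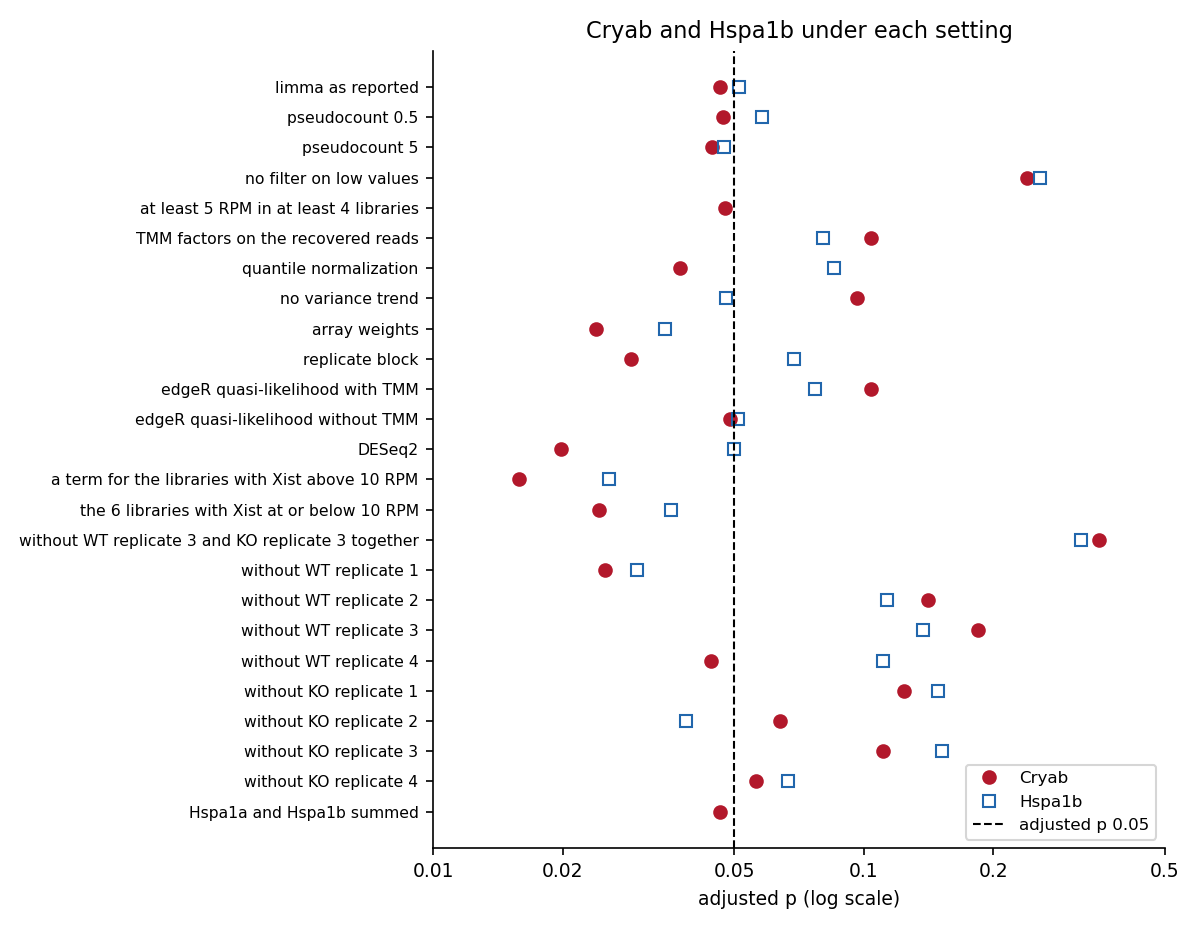
Adjusted p (x axis, log scale) of Cryab (filled red circles) and Hspa1b (open blue squares) in the fit as reported and in each other setting (rows); the dashed line is 0.05. Cryab lies left of the line in 13 of 24 other settings and Hspa1b in 8 of 22. The 13 include the fit with Hspa1a and Hspa1b summed, which leaves the values of Cryab untouched.

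The libraries that were high for a member within its own group were compared among all 21 pairs of the 7 genes, as deviations of log2(RPM + 1) from the group mean over 8 libraries. By Pearson r, Hspb7 and Cryab gave the smallest permutation p (r = 0.827, p = 0.0139), with a Benjamini-Hochberg adjusted p of 0.292. Their Spearman rho was 0.69 (permutation p = 0.0573, adjusted 0.52). Without KO 2 and KO 4, the libraries farthest from the median of Hspb7, r was 0.811. Hspa1b and Dnajb1 came next by r (r = 0.793, permutation p = 0.0312, adjusted 0.328). By rho this pair gave the smallest p (rho = 0.929, permutation p = 0.00347, adjusted 0.0729), where the values of Hspa1b rest on few reads. Without KO 2 and WT 4, r of this pair was 0.92. None of the 21 pairs passed the correction and 2 had an unadjusted p of r under 0.05, by permutation within groups over 576 arrangements.

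Among all genes tested, the pattern most like that of Cryab over the 8 libraries, by Pearson r of log2(RPM + 1), belonged to Tm4sf1 (r = 0.972), Fxyd5 (0.968) and S100a10 (0.956). The pattern most like that of Hspb6 belonged to Col23a1 (0.914), 1810041H14Rik (0.909) and Mecr (0.908). These values describe the same 8 libraries and include the difference between the groups.

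Chaperones and partners outside the set were described through 12 lists, with 110 tested genes in all. Of these, 2 rose (1.82%, against 0.523% of all genes) and 0 fell in limma, and 23 were higher (20.9%, against 13.1%) and 3 lower (2.73%, against 3.07%) at an unadjusted p under 0.05. The genes that rose were Dnajb9 and Sdf2l1. Both encode proteins of the endoplasmic reticulum, where Dnajb9 is a J-domain partner of the HSP70 Hspa5 and Sdf2l1 a partner of its J-domain cochaperones. Dnajb9 was listed with the J-domain proteins of the cytosol. Dnajb9 stood at 150, 133, 193 and 158 RPM in KO, against 87.3, 95.7, 86.4 and 118 RPM in WT (log2 fold change 0.57 above the median of all genes; limma adjusted p = 0.0321). Sdf2l1 stood at 9.53, 11.5, 10.4 and 10.4 RPM in KO, against 7.19, 5.17, 4.56 and 4.21 RPM in WT (0.76 above the median; adjusted p = 0.0301). For both genes every KO library lay above every WT library, a separation seen in 7.5% of all genes tested. With TMM factors Dnajb9 passed (limma adjusted p = 0.0438), Sdf2l1 did not (0.0565), and Map1lc3a fell (0.0312, against 0.0879 on the deposited scale). At an unadjusted p under 0.05, TMM left 13 of the 110 higher (11.8%, against 6.14% of all genes) and 6 lower (5.45%, against 7.17%).

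No chaperone gene listed for the cytosol passed in limma besides Cryab and Dnajb9. Of 7 further HSP70 family genes, 1 was higher and 1 lower at an unadjusted p under 0.05 (13.1% and 3.07% of all genes). The lower was Hspa2, an HSP70 of the testis, with few reads (0.699 ± 0.271 RPM in KO, 1.64 ± 0.261 RPM in WT). Hsp90ab1, the constitutive cytosolic HSP90, averaged 1683 ± 187 RPM in KO muscle and 1533 ± 231 RPM in WT muscle (SD, n = 4 each; limma adjusted p = 0.65). Of the 11 J-domain proteins tested, 4 were higher at an unadjusted p under 0.05, among them Dnajb4, a partner of HSP70 in muscle (27.9 ± 3.68 RPM in KO, 18.9 ± 4.05 RPM in WT; adjusted p = 0.138). Of the other small heat shock proteins, 4 were tested and all had positive fold changes, as did 7761 of all 11087 genes. Relative to the median of all genes they were 0.34 (Hspb3), 0.07 (Hspb2), 0.05 (Hspb11) and 0.004 (Hspb9). Hspb3 came nearest to passing (86.2 ± 16.1 RPM in KO, 61.7 ± 9.06 RPM in WT, limma adjusted p = 0.166), and Cryaa was listed at 0 in every library.

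The cochaperone list, 24 tested genes, had a median close to that of all genes (0.003 above it). It held 2 genes that were higher at an unadjusted p under 0.05, the HSP90 partners Ahsa1 (limma adjusted p = 0.208) and Chordc1 (0.219). At that unadjusted level 13.1% of all genes were higher and 3.07% lower. Bag3, which joins HSP70 to the small heat shock proteins and to autophagy, stood at 16.9, 12.6, 7.14 and 8.24 RPM in KO, against 17.2, 11.2, 7.41 and 8.26 RPM in WT. Of the heat shock factors and regulators none of 4 tested reached an unadjusted p under 0.05 in limma and none passed in edgeR, and Hsf1 averaged 39.8 ± 4.93 RPM in KO muscle and 38.9 ± 1.63 RPM in WT muscle (adjusted p = 0.951). The TRiC chaperonin, which folds actin and tubulin, had 2 of 8 subunits higher at an unadjusted p under 0.05, Cct2 and Cct3, and none passed. Des, which encodes desmin, a filament protein that Cryab binds, stood at 2240, 2740, 2190 and 2270 RPM in KO, against 2420, 2480, 2830 and 2250 RPM in WT (adjusted p = 0.796). The filament and Z-disc list held 2 of 12 genes with an unadjusted p under 0.05, Vim and Csrp3, both higher. Only 4 of the 12 lay above the median of all genes, and the list median was -0.11 relative to it. The list of aggrephagy and ubiquitin partners held 1 higher (Nbr1, a receptor that carries ubiquitinated protein to autophagosomes) and 1 lower (Map1lc3a) of 6. Map1lc3a encodes an LC3 protein of the autophagosome membrane and stood at 93.0, 87.1, 90.1 and 102 RPM in KO, against 151, 132, 117 and 121 RPM in WT.

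In the endoplasmic reticulum 10 of 11 tested genes lay above the median of all genes, and the list's own median was 0.17 above it. At an unadjusted p under 0.05, 4 were higher and 0 lower (13.1% and 3.07% of all genes). Among them, Hspa5, the HSP70 of that compartment also called BiP, stood at 203, 140, 168 and 228 RPM in KO, against 167, 99.3, 97.2 and 129 RPM in WT (adjusted p = 0.142). In mitochondria 3 of 8 were higher at an unadjusted p under 0.05, Dnaja3, Hspa9 and Grpel2, and none passed in limma or edgeR. Immediate early genes, which also respond to handling of the tissue, held 3 higher and 1 lower of 14 at that level. The list median was 0.215 above the median of all genes, and 10 of the 14 lay above it. Egr1, a transcription factor of that list, stood at 128, 27.6, 41.4 and 31.0 RPM in KO, against 28.3, 13.9, 6.42 and 10.8 RPM in WT. Its limma adjusted p was 0.0575. The summed list overlapped between the groups (498.1 to 727.8 RPM in KO, 503.2 to 715.5 RPM in WT). That sum was mostly Nr4a1 and Jun, which averaged 221 and 129 RPM in KO and 284 and 153 RPM in WT. The part of tissue handling in the values of Hspa1b was not tested.

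**Figure D5:**
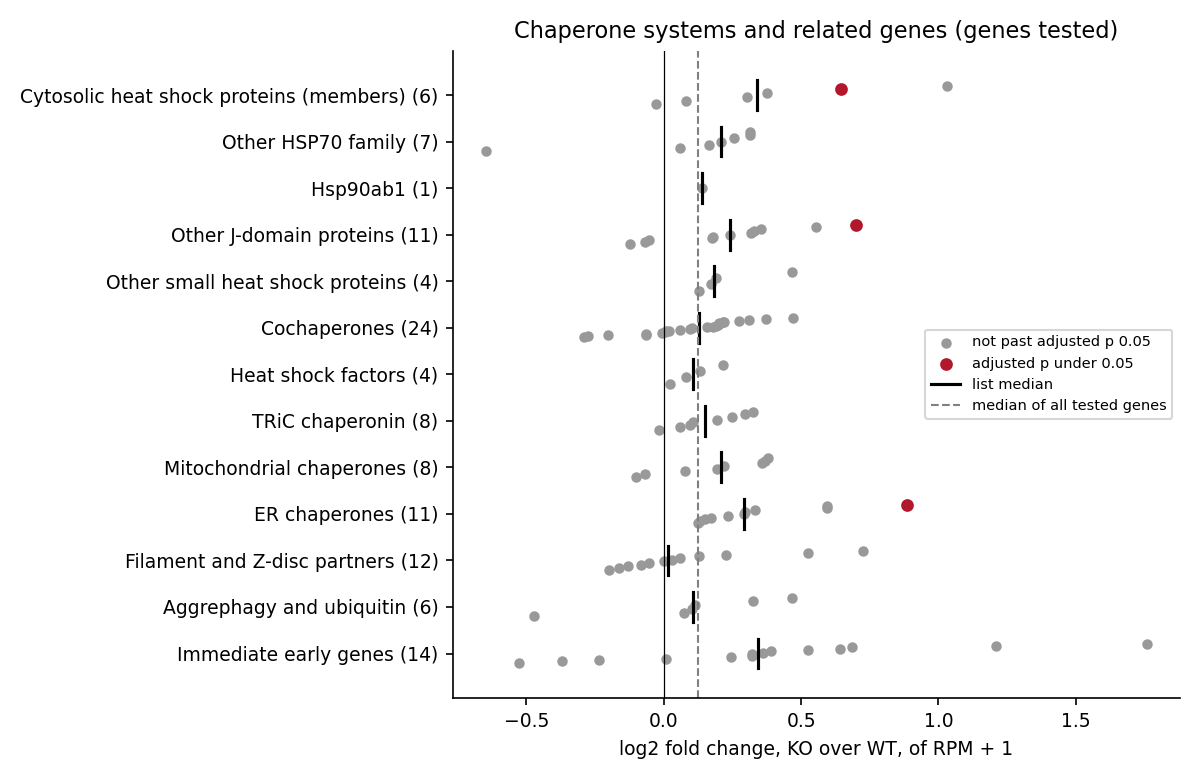
Log2 fold change of RPM + 1, KO over WT (x axis), of each tested gene in the heat shock set and 12 related lists (rows, number tested in brackets); red points passed limma at an adjusted p under 0.05, black bars are list medians and the dashed line is the median of all tested genes. The red points are Cryab, Dnajb9 and Sdf2l1.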

How the data were processed

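RNA of mouse tibialis anterior was measured in 4 KO and 4 WT libraries, grouped by the sample titles. The deposited values are RPM, reads per 1000000 reads, from Ion AmpliSeq libraries made on the Ion Chef, per the labels' protocols. Among tools, the submitters' processing notes list the Transcriptome Analysis Console; the aligner, build and strand setting were not given in the sources used here. Every value was a whole multiple of 1 read (100% within 0.05 reads), which gave the read totals. All replicate pairs differed by more than sampling noise (chi-square of their reads over its degrees of freedom, 8.725 or more). The labels name no batch and do not say whether every library is its own animal, so the p-values reflect only the spread of these libraries, which may be technical.

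The main test was limma 3.58.1 (R 4.3.3) on log2(RPM + 1), for genes reaching 1 RPM in 4 or more libraries, two-sided, using moderated variances with a trend, and Benjamini-Hochberg adjusted over all these genes with a threshold of 0.05. As alternatives, the reads so recovered went into edgeR 4.0.16 (quasi-likelihood, TMM; 92 genes called) and DESeq2 1.42.0 (240 called). The fits were also run on simulated data with known changes, none of them in genes as low as Hspa1b. The outcome is not given here and lends no weight to the calls. Members and lists were chosen with earlier results of these data known. Named were the 10 members, Sdhc, and from each list up to 4 genes with the smallest p. Bag3 and Des were named for their links to members after their values were seen. Mb, Nr4a1 and Jun were named because they made up most of a list's sum, also after their values were seen. Other alternatives were pseudocounts, filters, scalings, the variance model, a replicate block, an Xist term and omitted libraries. Gene locations came from GENCODE M21 (GRCm38) and matched 7 of 7 members in the table; promoter windows came from RefSeq (GRCm38.p6) and matched 6 of 7.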

Additional observations from a re-analysis of the deposited data

Results flagged for a closer look

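A library far from its fellows was sought in the members, the sum of Hspa1a and Hspa1b, Sdhc and the smallest-p genes of the 12 related lists. In these, 108 groups of 4 libraries were examined and 7 were found, where chance alone gives about 1 in 20. Genes named for other reasons, such as the cell type markers, Bag3 and Des, were not examined in this way. WT 1 had 3.52 RPM of Hspa1a and Hspa1b summed, and the remaining WT libraries had 1.17, 1.28 and 1.46 RPM. KO 2 had 27.4 RPM of Hspa12b, an atypical HSP70, where the remaining KO libraries had 24.2 to 24.6 RPM. For the chaperonin subunit Cct4 it was KO 3, with 109 RPM beside 75.5 to 80.8 RPM, and for the subunit Tcp1 it was WT 4, with 86.0 RPM beside 69.8 to 70.9 RPM. Hsbp1, a binding partner of heat shock factor 1, reached 311 RPM in KO 4 and 241 to 251 RPM in its fellows. Of the immediate early genes, Egr1 reached 128 RPM in KO 1 and 27.6 to 41.4 RPM in its fellows, and Nr4a3 reached 13.1 RPM in WT 1 and 0.835 to 2.14 RPM in its fellows.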

How the results depend on the processing

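The number of genes called, 89, was 12 with no filter on low values, 181 with array weights, 240 in DESeq2, 235 with a term for Xist, 392 in the 6 libraries without Xist and 9 without WT 3 and KO 3, and between 16 and 263 when 1 library was left out. The 24 settings of Cryab include the fit with Hspa1a and Hspa1b summed, which leaves the values of Cryab untouched. Cryab stayed higher in KO in all 24 settings and lost its call in 11. These included no filter (log2 fold change 0.64, limma adjusted p = 0.239), TMM factors (0.51, 0.104), no variance trend (0.64, 0.0964), edgeR with TMM (0.51, 0.104) and the omission of WT 3 and KO 3 (0.58, 0.352); leaving out 1 library gave 0.57 to 0.72. Hspa1b stayed higher in KO in 22 settings and passed in 8: a pseudocount of 5 (0.43, adjusted p = 0.0474), no variance trend (1.03, 0.0479), array weights (1.04, 0.0346), DESeq2 (1.47, 0.0499), the Xist term (1.03, 0.0256), the 6 libraries (1.07, 0.0357) and the omission of WT 1 (0.0297) or KO 2 (0.0386), within a range of 0.89 to 1.2 over single omissions. A filter of 5 RPM left it untested. Its sum with Hspa1a passed with array weights (1.02), the Xist term (0.95), the 6 libraries (1.19) and without WT 1, within 0.84 to 1.2. Hspb7 changed sign with TMM factors (-0.048), quantile normalization (-0.013), the 6 libraries (-0.072) and over single omissions (-0.127 to 0.204), and Hspb6 over single omissions (-0.053 to 7.6e-05). Sdhc in KO was 2.6% to 4.28% of WT over single omissions, and each time the exact permutation p was 0.0571, which 3 against 4 cannot go below. The cause of these changes was not tested. With the replicate number as a block 81 genes were called, Cryab had an adjusted p of 0.0288 and no other member passed; libraries of the same number did not deviate together (r between -0.121 and 0.0791, and 1 of 8 libraries correlated best with its own number), so the numbers were not taken as pairs. At 3 to 28 reads per library, the depth limits what can be said of Hspa1b.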
